A study of Homo sapiens with 4 samples.

Results

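The genes described here code for the ring proteins that bind spliceosomal RNAs and for the proteins that join them in small nuclear ribonucleoproteins (snRNPs). They were taken as every protein-coding gene whose GENCODE symbol begins with SNRNP, SNRP, LSM and a number, or PRPF, with SNRPN left out. The rule found 44 genes among the 60564 gene identifiers listed: 7 Sm protein genes, 13 LSM protein genes and 24 genes of snRNP-specific proteins and PRPF splicing factors. Of these, 42 had enough counts to be tested. RNA-seq was performed on Elf1 cells, a line of naïve human embryonic stem cells, and the question was how growth in 3-D changes their transcriptome. The 2-D grown cells adhered to coated plates. The study's methods describe plates with mouse embryonic feeder cells, and a move to feeder-free, Matrigel-coated plates before encapsulation. They do not state on which of these the sequenced 2-D cells grew. The 3-D grown cells were encapsulated as single cells in scaffolds of PEG-8-SH and PEG-8-Acr and kept there for 21 days. Both conditions used the same line and the same expansion medium, and the labels name no transgene or deletion. There were 2 libraries per condition, called replicates 1 and 2.

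The spliceosome removes introns from pre-mRNA and is built from snRNPs, each an snRNA with its proteins. The Sm proteins (SNRPB, SNRPD1, SNRPD2, SNRPD3, SNRPE, SNRPF and SNRPG) form a ring around the U1, U2, U4 and U5 snRNAs, while a ring of LSM2 to LSM8 sits on the U6 snRNA in the nucleus. With LSM1 in place of LSM8, the LSM proteins form a cytoplasmic ring that acts in mRNA decay. The proteins specific to each snRNP recognize splice sites, hold U4 and U6 together, or unwind and remodel the RNAs.

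The counts of a library summed to between 18276147 and 33833778, and both 3-D libraries were shallower than both 2-D libraries. Levels are given as CPM, counts per 1000000 counts of the library after TMM normalization, and a gene was called when its adjusted p from edgeR's quasi-likelihood test was below 0.05. The 6 pluripotency markers held summed levels of 3340.4 to 3450.2 CPM in the 4 libraries, and none was called. Of the 6 naïve markers, 5 were tested and none was called, while DPPA5 was at 0.13 CPM or less in every library. Genes listed as markers of other cells were also counted. The 8 fibroblast markers summed to 538 and 530 CPM in 2-D grown cells and to 551 and 599 CPM in 3-D grown cells. Of these, 4 (COL1A1, COL3A1, POSTN and THY1) were called higher. COL1A2 had the highest mean of the 8 (321 CPM in 2-D and 313 CPM in 3-D) and was not called. DCN and LUM were at most 0.195 and 0.948 CPM in any library. The summed levels of the endoderm markers ranged from 8.02 to 9.93 CPM, of the mesoderm markers from 67.3 to 72.7 CPM, of the neural ectoderm markers from 602 to 630 CPM and of the trophoblast markers from 3.34 to 4.41 CPM, with none called. Most of the neural ectoderm sum came from NES, at 583 and 577 CPM in 2-D and 602 and 599 CPM in 3-D. Of the other neural ectoderm markers, OTX2 was at 21.3 to 24.0 CPM and NCAM1 at 3.74 to 4.50 CPM. PAX6 had means of 0.548 CPM in 2-D and 0.745 CPM in 3-D, and SOX1 was at most 0.167 CPM in any library. Among 8 proliferation markers, MKI67 rose and CDK1 fell. The part of any such difference in the results was not tested, and in bulk RNA fewer cells of a type and less RNA per cell cannot be told apart.

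Of the 42 tested genes, 8 were called higher and 7 lower after 3-D growth, and 27 were not called. This is 35.7% of them, beside 7.90% of all 22555 genes tested (4.54% higher and 3.36% lower). Most of the 44 genes are well expressed, and among the 10211 genes with a mean of at least 10 CPM the share called was 15.1%, where 7 of the 40 members in that range were called higher and 7 lower. The median log2 fold change was −0.0039 over the 42 genes and −0.00014 over all tested genes, and the median size of a change was 0.12 and 0.13. Both 3-D libraries lay above both 2-D libraries for 15 of the genes and below them for 14, and this held for 25.4% and 25.1% of all tested genes (50.5% in either direction).

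The counts differed between the 3 groups. Of 7 Sm genes, 6 had lower values in 3-D grown cells and 3 were called lower. Of 12 tested LSM genes, 10 had lower values, 2 were called lower and 1 higher. Among these 10 were LSM3, LSM4 and LSM6, with log2 fold changes of only −0.0019, −0.003 and −0.0048. Of 23 tested genes of snRNP-specific proteins and PRPF factors, 16 had higher values, 7 were called higher and 2 lower. The median log2 fold changes were −0.12 (Sm), −0.041 (LSM) and 0.092 (snRNP-specific and PRPF), with no test of the difference between groups. Over all 22555 tested genes, 11272 had higher and 11283 lower values, and 4.54% were called higher and 3.36% lower. Among the 10211 genes with a mean of at least 10 CPM, where most members lie, 8.98% were called higher and 6.09% lower. Summed over a group, the Sm genes held 690 and 688 CPM in 2-D grown cells and 643 and 595 CPM in 3-D grown cells, whereas the snRNP-specific and PRPF genes held 2273.0 and 2243.4 CPM in 2-D and 2432.6 and 2361.4 CPM in 3-D. The LSM genes summed to 532 and 527 CPM in 2-D and to 521 and 500 CPM in 3-D.

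**Figure D1:**
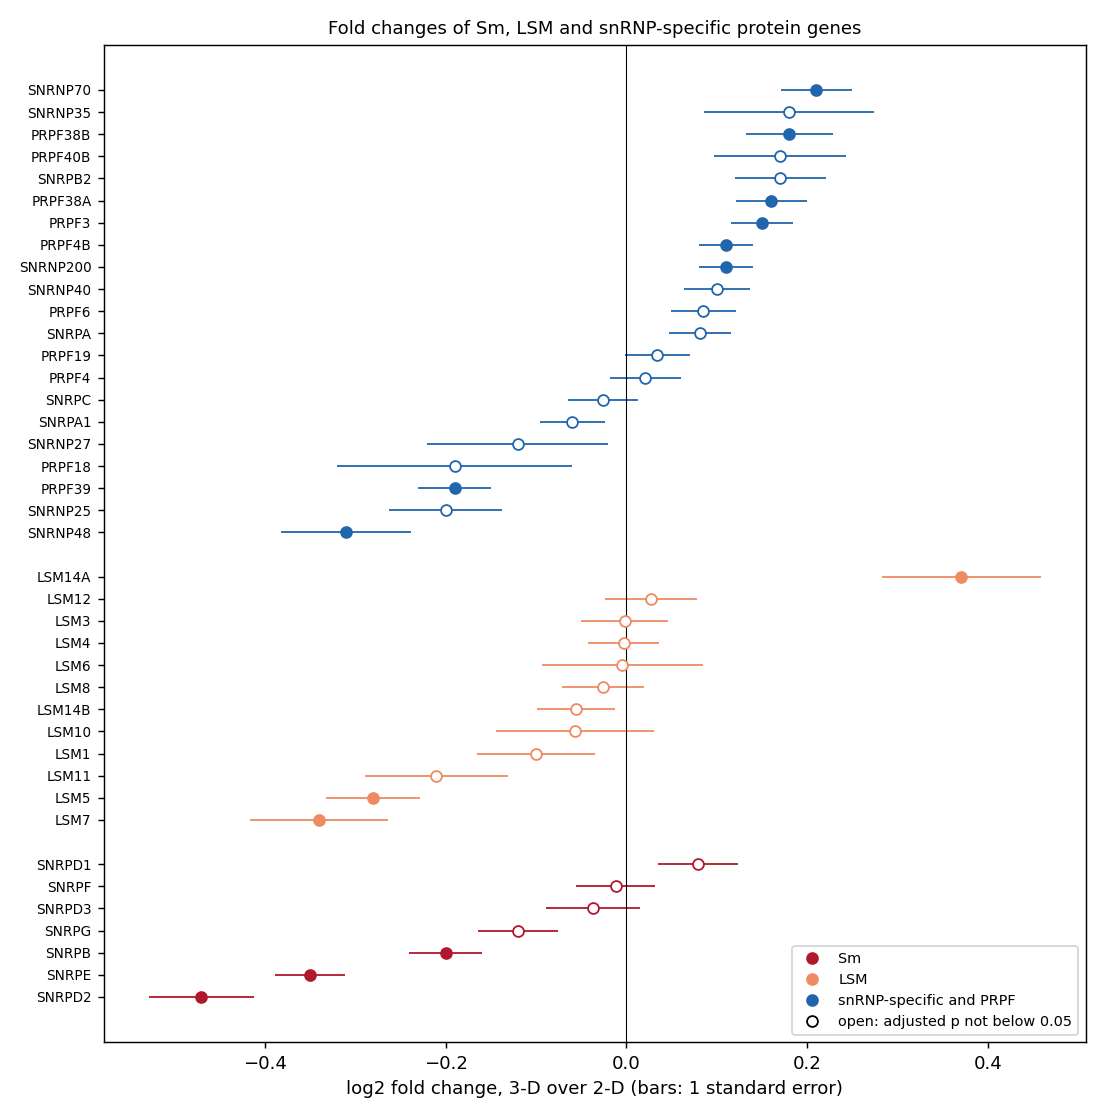
Log2 fold change between conditions, 3-D minus 2-D (x axis) for tested genes (y axis), by group, with bars of 1 standard error; filled points have an adjusted p below 0.05, and PRPF31 at 2.16 is left out. The filled Sm points all lie left of 0, and 6 filled points of the snRNP-specific and PRPF group lie right of it.

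The Sm proteins form their ring in the cytoplasm and each ring holds all 7, so their genes can be read as subunits of 1 structure. SNRPD2 showed the largest change of them. Its levels were 143 and 139 CPM in the 2-D libraries and 110 and 92.4 CPM in the 3-D libraries, so that both 3-D libraries were well below both 2-D libraries. The log2 fold change was −0.47 (SE 0.058, adjusted p = 4.50e-04 by edgeR), a level that fell by 27.8%. SNRPD2 is located on chromosome 19, from 45687460 to 45692569 on the minus strand (hg38), and has 3 exons in its canonical transcript.

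SNRPE, whose product sits between SmG and SmF in the ring, had 76.9 and 80.5 CPM in 2-D and 61.8 and 61.9 CPM in 3-D. The 3-D libraries were nearly equal and lay below both 2-D libraries, with a log2 fold change of −0.35 (SE 0.039, adjusted p = 2.05e-04). Its gene lies on chromosome 1, from 203861599 to 203871152 on the plus strand, with 5 exons. SNRPE has 10 annotated pseudogenes, whose counts were 4.83% to 7.32% of those of SNRPE.

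SNRPB, which codes for the SmB and SmB′ proteins, had 100 and 98 CPM in 2-D and 83.1 and 90.0 CPM in 3-D. It fell by 12.8%, with a log2 fold change of −0.20 (SE 0.04, adjusted p = 0.00926). The gene spans chromosome 20 from 2461634 to 2470853 on the minus strand, with 7 exons. Of its exon bases, 4.97% overlap a gene on the same strand. SNRPD2 and SNRPE were called whichever library was left out, but SNRPB was not without 2-D replicate 1 (−0.18, adjusted p = 0.078).

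The other 4 Sm genes were not called. SNRPG had 88.3 and 85.6 CPM in 2-D and 83.8 and 76.2 CPM in 3-D, a difference of −0.12 (SE 0.044, adjusted p = 0.130) that passed the threshold without 3-D replicate 1 (−0.19, adjusted p = 0.00471). SNRPD1 was the only Sm gene with a higher mean, at 136 and 137 CPM in 2-D and 152 and 135 CPM in 3-D. Its 3-D libraries fell on both sides of the 2-D libraries, with a log2 fold change of 0.079 (SE 0.044, adjusted p = 0.347), but without 3-D replicate 2 it was called higher (0.16, adjusted p = 0.00135). SNRPF had 105 and 106 CPM in 2-D and 110 and 98.3 CPM in 3-D, and SNRPD3 had 41.4 and 42.6 CPM in 2-D and 41.2 and 40.7 CPM in 3-D. Their log2 fold changes were −0.012 (SE 0.044) and −0.037 (SE 0.052).

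The 3-D libraries varied more among themselves than the 2-D libraries did. Over the 40 members with a mean of at least 10 CPM, the median size of the log2 ratio between replicates was 0.033 in 2-D and 0.087 in 3-D, and 29 of the 40 were higher in 3-D replicate 1 than in 3-D replicate 2. Over all 10211 genes at that level the medians were 0.04 and 0.062, and 4926 were higher in 3-D replicate 1. For the 7 Sm genes they were 0.041 and 0.14.

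**Figure D2:**
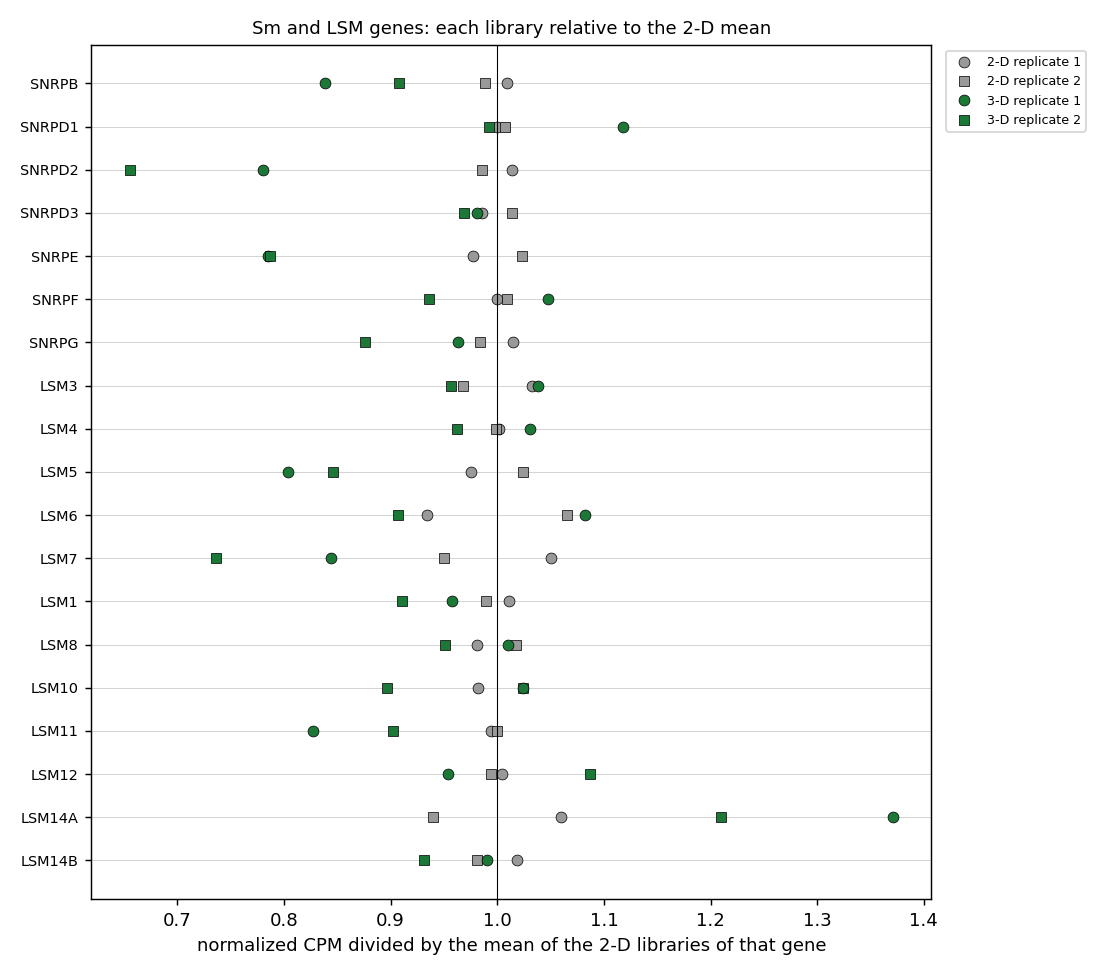
Normalized CPM of each library divided by the mean of the 2-D libraries (x axis) for the Sm and the tested LSM genes (y axis), with 2-D libraries in grey and 3-D libraries in green, circles for replicate 1 and squares for replicate 2. Of the called genes, SNRPB, SNRPD2, SNRPE, LSM5 and LSM7 have both green points left of both grey points and LSM14A has them right, and SNRPD3, SNRPG, LSM1 and LSM11 also have them left without being called.

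The Sm genes differed in level among themselves. Per kilobase of exon and averaged over the 4 libraries, SNRPD2 had the highest level at 84.0 CPM per kilobase and SNRPD3 the lowest at 10.6, a ratio of 7.93. With the length of the longest transcript in place of all exons the ratio was 12.6 between the same genes. In SNRPD3, 14% of the exon bases overlap a gene on the same strand. Per kilobase of exon SNRPD2 fell from 97.7 to 70.4 CPM, and SNRPG was next at 49.3 and 45.4 CPM. Per kilobase of the longest transcript SNRPD2 went from 175 to 126 CPM and SNRPF from 129 to 128 CPM, so the order of SNRPD2 and SNRPF in 3-D grown cells and the gene next to SNRPD2 in 2-D grown cells depend on the length used.

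**Figure D3:**
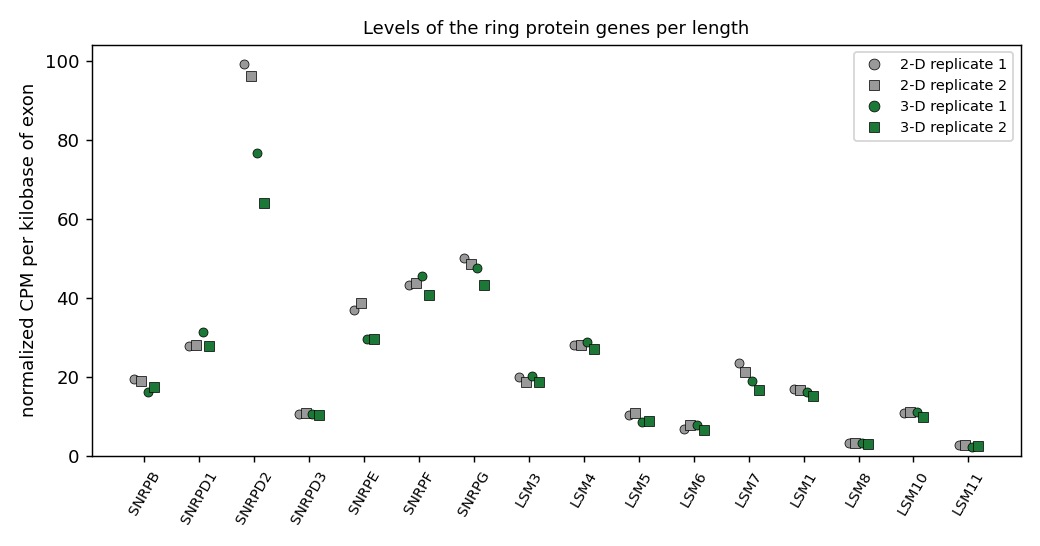
Normalized CPM per kilobase of exon (y axis, from 0) of the Sm genes and of LSM3 to LSM8, LSM1, LSM10 and LSM11 (x axis) in each library, with 2-D libraries in grey and 3-D libraries in green. By this length SNRPD2 stands highest in both conditions, but per longest transcript SNRPF (128) and SNRPD2 (126) were close in 3-D.

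Promoter sequence was read for the ring genes because their products assemble together. RefSeq promoters (GRCh38.p14) were matched for 35 of the 44 genes (among those not matched were LSM1, PRPF3, PRPF4B, LSM14A, PRPF39, SNRNP35, SNRPD1 and LSM6), and 6 short motifs were searched on both strands in the 250 bases before the start. The ETS family core CCGGAA was found in 15 of the 35 (42.9%), beside 20.3% of 15324 promoters of protein-coding genes. It was found in 4 of 6 Sm genes, in 2 of 6 genes called lower and in 1 of 5 called higher. The Sm sites are shown in the orientation of the gene with the core (CCGGAA, or TTCCGG on the other strand) in capitals:
SNRPB, chr20:2470813-2470842, minus strand: tagtgagctggaCCGGAAgtaggtttctac
SNRPD3, chr22:24555824-24555853, plus strand: atcagccctcttTTCCGGtgccggaactat
SNRPE, chr1:203861597-203861621, plus strand: ttctttaTTCCGGaagttgctctca
SNRPG, chr2:70293490-70293519, minus strand: cttcatttcttcTTCCGGtccgaggtcgcc
The core began 41, 163, 243 and 49 bases before the RefSeq start, respectively. For SNRPE and SNRPG this start lies 248 and 282 bases downstream of the start of the canonical GENCODE transcript. The cores shown for these genes thus lie inside the annotated gene and not before the canonical start. The SNRPB site shown lies before the canonical start, but also inside the annotated gene, which reaches to 2470853. In addition, SNRPB, SNRPD3 and SNRPE each hold a further match, which in SNRPE overlaps the one shown. A CCAAT box was found in 51.4% of the 35 promoters and in 34.9% of protein-coding promoters, a GC box (GGGCGG) in 54.3% and 59.5%, and the NRF1 motif in 17.1% and 8.0%. The E-box CACGTG and TATAAA were each found in 2.86%, beside 7.91% and 9.09%. Such a match is a stretch of letters and was not tested for binding.

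The LSM genes are described by ring. Of LSM2 to LSM7, which both LSM rings share, LSM5 and LSM7 were called lower. LSM5 had 48.3 and 50.7 CPM in 2-D and 39.8 and 41.9 CPM in 3-D, with a log2 fold change of −0.28 (SE 0.052, adjusted p = 0.00606), and it is located on chromosome 7 from 32485338 to 32495283. LSM7, on chromosome 19 from 2321520 to 2328611, had 39.8 and 36.0 CPM in 2-D and 32.0 and 27.9 CPM in 3-D, with a log2 fold change of −0.34 (SE 0.076, adjusted p = 0.0173). In both genes the 3-D libraries lay below the 2-D libraries, but LSM5 was not called without 2-D replicate 2 (−0.24, adjusted p = 0.0785), nor LSM7 without 2-D replicate 1 (−0.26, adjusted p = 0.134).

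The other shared ring genes hardly moved in the mean. LSM3 had 67.3 and 63.1 CPM in 2-D and 67.7 and 62.4 CPM in 3-D, LSM4 had 80.4 and 80.2 CPM and then 82.8 and 77.3 CPM, and LSM6 had 27.1 and 30.9 CPM and then 31.4 and 26.3 CPM. Conditions overlapped in all 3, with log2 fold changes of −0.0019, −0.003 and −0.0048. LSM2 had 0 counts in all 4 libraries. A count of 3 would be 0.0887 to 0.164 CPM by library, here without TMM normalization. This bounds the level of LSM2 only if its reads could be counted. Its longest transcript has 5 near-identical copies (at least 98% identity over at least 80% of its length) on alternate contigs of hg38, so its level is uncertain.

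LSM8, which makes the ring nuclear, had 56.0 and 58.1 CPM in 2-D and 57.7 and 54.3 CPM in 3-D, a log2 fold change of −0.026 (SE 0.045, adjusted p = 0.815). LSM1 makes it cytoplasmic, and 37.9% of its exon bases overlap genes on the other strand. Its levels were 28.4 and 27.8 CPM in 2-D and 26.9 and 25.6 CPM in 3-D, a log2 fold change of −0.10 (SE 0.065, adjusted p = 0.433). The subunits that define the rings were thus not called in either case. LSM10 and LSM11 replace SmD1 and SmD2 in the U7 snRNP, which cuts histone pre-mRNA. LSM10 had 16.2 and 16.9 CPM in 2-D and 16.9 and 14.8 CPM in 3-D, whereas LSM11 had 18.4 and 18.5 CPM and then 15.3 and 16.7 CPM, with a log2 fold change of −0.21 (SE 0.079, adjusted p = 0.145).

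LSM14A, a translational repressor of P-bodies, was the only LSM gene called higher. Its levels were 17.7 and 15.7 CPM in 2-D and 22.9 and 20.2 CPM in 3-D, with a log2 fold change of 0.37 (SE 0.088, adjusted p = 0.0216). Both 3-D libraries were above both 2-D libraries, but the gene was not called without 2-D replicate 2 (0.29, adjusted p = 0.159) or without 3-D replicate 1 (0.27, adjusted p = 0.07), and it has a copy on an alternate contig. Its paralog LSM14B had 65.5 and 63.1 CPM in 2-D and 63.7 and 59.9 CPM in 3-D (−0.056, adjusted p = 0.516). LSM12 had 67.3 and 66.6 CPM in 2-D and 63.9 and 72.8 CPM in 3-D, and a pseudogene nearly identical to it had counts of its own equal to 16.3% to 30.8% of those of LSM12. Per kilobase of exon the 11 LSM genes compared ranged from 28.0 CPM for LSM4 to 2.62 for LSM11, a ratio of 10.7. Per kilobase of the longest transcript LSM7 was highest at 47.8 CPM.

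The snRNP-specific proteins were taken in the order in which their particles act. In the U1 snRNP, which recognizes the 5′ splice site, SNRNP70 rose. Its levels were 163 and 153 CPM in 2-D and 189 and 178 CPM in 3-D, with a log2 fold change of 0.21 (SE 0.039, adjusted p = 0.00458). It is located on chromosome 19 from 49085419 to 49108605, and it was not called without 2-D replicate 2 (0.17, adjusted p = 0.0794). The other U1 proteins were SNRPA, at 77.7 and 79.5 CPM in 2-D and 83.6 and 82.7 CPM in 3-D (0.081, SE 0.034, adjusted p = 0.192), and SNRPC, at 72.1 and 74.1 CPM and then 73.6 and 69.8 CPM (−0.026). SNRPC had the highest level of the group per length, 58.3 CPM per kilobase of exon.

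Among the proteins that associate with U1, PRPF39 fell from 90.3 and 86.2 CPM to 79.8 and 75.4 CPM, with a log2 fold change of −0.19 (SE 0.04, adjusted p = 0.0127), though not when 2-D replicate 1 was left out (−0.15, adjusted p = 0.175), and 13.3% of its exon bases overlap a gene on the other strand. PRPF40B had 20.9 and 20.7 CPM and then 24.5 and 22.4 CPM (0.17, SE 0.073, adjusted p = 0.188), and 48.7% of its exon bases overlap the other strand.

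Neither gene of the U2 snRNP, which binds the branch site, was called. SNRPA1 had 74.8 and 73.6 CPM in 2-D and 72.0 and 70.3 CPM in 3-D, with a log2 fold change of −0.06 (SE 0.036, adjusted p = 0.382). SNRPB2 had 86.6 and 86.1 CPM in 2-D and 104 and 90.5 CPM in 3-D. Both of its 3-D libraries were higher, with a log2 fold change of 0.17 (SE 0.05, adjusted p = 0.0587), and it was called without 3-D replicate 2 (0.26, adjusted p = 7.32e-05).

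In the U4/U6 snRNP, where U6 is held inactive by U4, all 3 genes had higher values in 3-D grown cells. PRPF3 had 77.5 and 77.9 CPM in 2-D and 85.9 and 86.1 CPM in 3-D, so that the replicates of each condition were nearly equal. Its log2 fold change was 0.15 (SE 0.034, adjusted p = 0.0184), but it was not called without 2-D replicate 1 (0.14, adjusted p = 0.202) or 2-D replicate 2 (0.15, adjusted p = 0.174). PRPF4 was at 64.3 and 65.2 CPM and then at 67.0 and 64.4 CPM (0.021). PRPF31 had counts of 53 and 39 in 2-D and of 202 and 45 in 3-D, or 1.54, 1.27, 9.83 and 2.51 CPM. The log2 fold change of 2.16 (SE 0.45, adjusted p = 0.0107) rested on 3-D replicate 1, without which it was 0.83 (adjusted p = 0.0673). PRPF31 has 9 copies on alternate contigs, and 31.3% of its exon bases overlap a gene on the other strand, so its level is uncertain.

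The U5 genes code for the large proteins at the heart of the spliceosome. SNRNP200, the helicase that unwinds U4 from U6, had the highest CPM of all 44 genes, with 448 and 439 CPM in 2-D and 475 and 480 CPM in 3-D. It rose by a small amount, with a log2 fold change of 0.11 (SE 0.03, adjusted p = 0.0496 by edgeR). SNRNP200 was called under only 3 of the 11 alternatives on all libraries. It also lost its call without 2-D replicate 1 (0.12) or 2-D replicate 2 (0.092). SNRNP40 was at 82.5 and 80.3 CPM in 2-D and at 88.8 and 85.6 CPM in 3-D (0.10, SE 0.036, adjusted p = 0.121). PRPF6, which bridges U5 and U4/U6, was at 85.9 and 84.6 CPM and then at 88.3 and 92.7 CPM (0.085, SE 0.036, adjusted p = 0.190). PRPF8, which holds the catalytic centre, was listed with 5, 4, 5 and 2 counts and was not tested. Its transcript has 1 near-identical copy on an alternate contig.

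SNRNP27 of the tri-snRNP had 18.7 and 18.2 CPM in 2-D and 18.9 and 14.8 CPM in 3-D (−0.12, SE 0.10, adjusted p = 0.553), and it was called lower without 3-D replicate 1 (−0.31, adjusted p = 0.0297). Of the exon bases of SNRNP27, 12.5% overlap a gene on the same strand. In the U11/U12 snRNP, which recognizes the rare minor introns, SNRNP48 fell. Its levels were 34.5 and 34.1 CPM in 2-D and 29.5 and 25.7 CPM in 3-D, with a log2 fold change of −0.31 (SE 0.072, adjusted p = 0.0185), and it was not called without 2-D replicate 1 (−0.31, adjusted p = 0.069). SNRNP25 was at 36.2 and 34.2 CPM and then at 30.6 CPM in both 3-D libraries (−0.20, SE 0.062, adjusted p = 0.0695), and it was called lower under 5 of 11 alternatives, among them the replicate block (adjusted p = 0.0473). SNRNP35 was at 15.4 and 13.0 CPM and then at 16.0 and 16.3 CPM (0.18, SE 0.094, adjusted p = 0.302), with 44% of its exon bases overlapping the other strand.

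Of the 5 other PRPF factors, 3 were called higher. PRPF38A, a factor of spliceosome activation, had 65.1 and 66.6 CPM in 2-D and 75.2 and 71.7 CPM in 3-D (0.16, SE 0.039, adjusted p = 0.0255). PRPF38B had 122 and 121 CPM and then 147 and 128 CPM (0.18, SE 0.048, adjusted p = 0.0344). PRPF4B, a kinase of the spliceosome, had 210 and 208 CPM and then 228 and 224 CPM (0.11, SE 0.03, adjusted p = 0.0368). In all 3 the 3-D libraries lay above the 2-D libraries, and all 3 lost their call without either 2-D library: PRPF38A had an adjusted p of 0.259 without 2-D replicate 1 and 0.139 without 2-D replicate 2, PRPF38B 0.069 and 0.0931, and PRPF4B 0.269 and 0.37. Without 3-D replicate 1 the log2 fold changes of PRPF38A and PRPF38B were 0.12 (adjusted p = 0.115) and 0.081 (adjusted p = 0.119). PRPF19, a ubiquitin ligase needed for spliceosome activation, had 112 and 110 CPM in 2-D and 110 and 117 CPM in 3-D (0.034). PRPF18, which acts in exon ligation, had 0.522 CPM per kilobase of exon but 3.83 CPM per kilobase of its longest transcript, with 6.68 and 6.98 CPM in 2-D and 6.47 and 5.47 CPM in 3-D (−0.19, SE 0.13, adjusted p = 0.440). Of its exon bases, 15.9% overlap genes on the other strand.

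**Figure D4:**
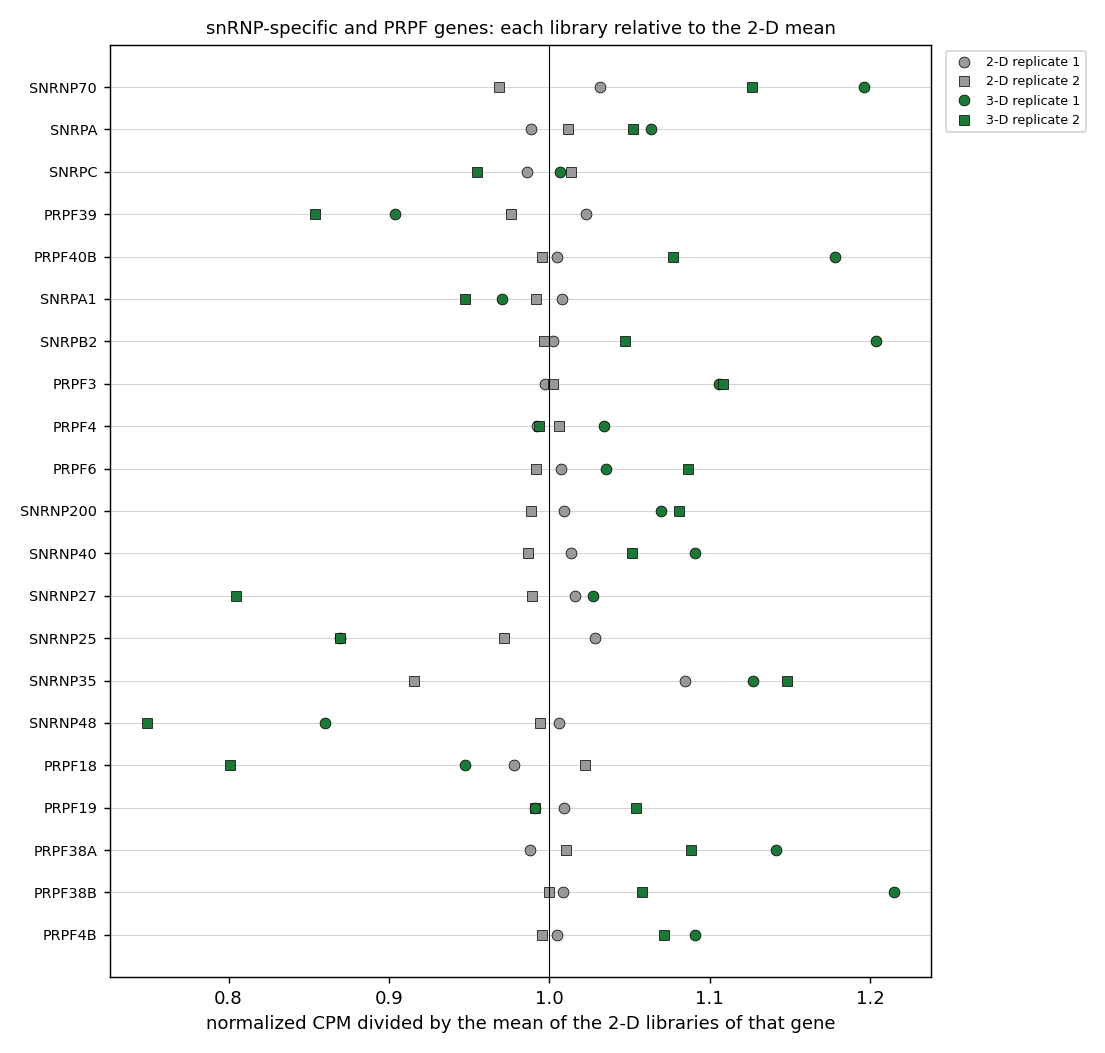
Normalized CPM of each library divided by the mean of the 2-D libraries (x axis) for snRNP-specific and PRPF genes (y axis), with 2-D libraries in grey and 3-D libraries in green, circles for replicate 1 and squares for replicate 2, and PRPF31 left out. Among the called genes, both green points lie right of both grey points for SNRNP70, PRPF3, SNRNP200, PRPF38A, PRPF38B and PRPF4B, and left of them for PRPF39 and SNRNP48.

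Transcript length differed between the genes called higher and those called lower. Across the 42 tested genes the Spearman correlation of the log2 fold change with the length of the canonical transcript was 0.39, beside 0.079 across 22467 genes, and with GC content it was 0.16 beside 0.15. The genes share the same 4 libraries and are not independent replicates. The genes called higher had a median transcript of 4131.0 bases (1671 to 7517) and the genes called lower one of 1560.0 bases (491 to 4174). Of the 10 genes under 1.2 kb, 3 were called lower and none higher, with a median of −0.11, while of the 15 genes of at least 3 kb, 5 were called higher and 2 lower, with a median of 0.085. With offsets for GC content and for the length of the longest transcript, 9 genes were called higher and 6 lower, from 8 and 7 without offsets. As some higher calls were lost, genes not called before gained one. This length can differ from the canonical length used above, as for SNRPB with 3938 and 1082 bases. SNRPB, SNRPD2, SNRPE, LSM5 and LSM7 were among the genes still called lower, PRPF39 was not called (−0.14, adjusted p = 0.0718), and neither SNRNP70 (0.16, adjusted p = 0.0518) nor SNRNP200 (0.074, adjusted p = 0.146) was called higher.

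**Figure D5:**
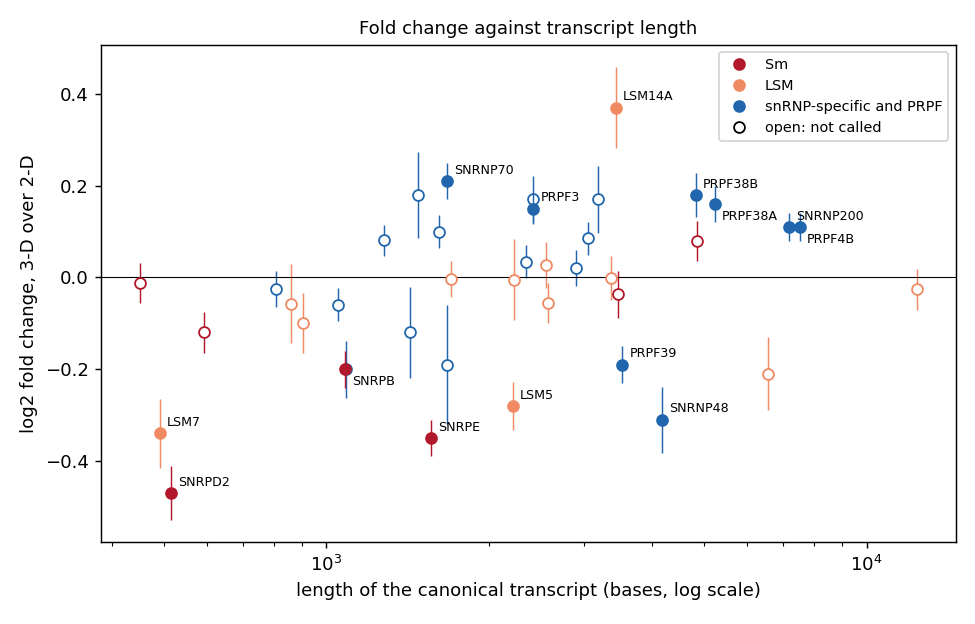
Log2 fold change between conditions, 3-D minus 2-D (y axis, bars of 1 standard error) against the length of the canonical transcript in bases (x axis, log scale) for tested genes, with PRPF31 left out and open points for genes not called. Among the called genes, SNRPD2, LSM7 and SNRPB are short and lie below 0, PRPF38A, PRPF38B, PRPF4B and SNRNP200 are long and lie above it, and PRPF39 and SNRNP48 are long and lie below it.

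Genes that work with these proteins under other names were described by list. Of 18 further snRNP proteins, 3 were called higher and 1 lower, with a median log2 fold change of 0.0055. The tri-snRNP protein SART1 rose from 58.7 and 57.6 CPM to 66.7 and 69.1 CPM (0.22, adjusted p = 0.00402), and ZRSR2 of the minor spliceosome was also called higher (0.30, adjusted p = 0.0340). SNU13, which binds U4 snRNA and box C/D snoRNAs, fell from 105 and 102 CPM to 90.8 and 92.9 CPM (−0.17, adjusted p = 0.00872). Of 17 genes of snRNP assembly and cap processing, PHAX, the export adaptor of snRNAs, rose (0.18, adjusted p = 0.00951), and WDR77, which with PRMT5 methylates Sm proteins, fell from 58.5 and 60.6 CPM to 47.2 and 51.9 CPM (−0.27, adjusted p = 0.00668).

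Of 12 genes of the PRPF19 complex and its partners, only XAB2 was called (0.16, adjusted p = 0.0399), with a median of 0.031. Of 8 partners of the LSM1 to LSM7 ring in mRNA decay, PATL1 (0.15) and EDC4 (0.18) were called higher. The decapping enzyme DCP2 was called lower, from 432 and 436 CPM to 373 and 368 CPM (−0.23, adjusted p = 5.95e-04). Of 5 partners of the U7 snRNP, SYMPK was called higher (0.19, adjusted p = 0.0201). The shares called in these 5 lists were 22.2%, 11.8%, 8.33%, 37.5% and 20.0%, beside 15.1% of genes with at least 10 CPM.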

How the data were processed

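The values deposited are raw counts, in whole numbers, for each gene and library. Per the labels and the submitters' processing notes, the authors depleted ribosomal RNA, trimmed reads with Trim Galore 0.6.3, mapped them to hg38 with HISAT2 2.1.0 and counted them with featureCounts 1.6.4 on an earlier GENCODE release. The strand setting, the treatment of multiply mapped reads and the use of alternate contigs are not given in the sources used here. A deposited table of normalized values and the authors' fold changes and p-values was not used.

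Counts were analysed in edgeR 4.0.16 (R 4.3.3) with TMM, filterByExpr (22555 genes tested), the quasi-likelihood test with condition alone and Benjamini-Hochberg adjustment over all of them. Standard errors are the size of the log2 fold change over the square root of F. Names, positions and lengths are from GENCODE release 44, and 269 identifiers had no symbol. Copies were sought with minimap2 2.31-r1302. Totals were 33833778 and 30114220 in 2-D and 21154409 and 18276147 in 3-D, and the biological coefficient of variation was 5.10%. The study's methods describe the replicates as independent and biological. Replicates differed by more than sampling noise (chi-square over degrees of freedom 2.27 and 3.92).

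Members were named, except genes not reported here, with full statistics for those called, the extremes of each group and those whose call changed under an alternative. The members and lists were chosen with earlier results of these data known. The 11 alternatives on all libraries were DESeq2 1.42.0, DESeq2 size factors, library size only, scaling that leaves out ribosomal protein, histone and mitochondrial genes, no low-count filter, at least 10 counts in every library, edgeR without legacy mode, a replicate block, length and GC offsets, both together, and 2-D libraries thinned to the 3-D depth. Each library was also left out. The fit was tested on simulated counts with 200 changed genes.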

Additional observations from a re-analysis of the deposited data

How the results depend on the processing

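Of the 15 called members, all kept their direction under every alternative run. Of these, 5 (SNRPB, SNRPD2, SNRPE, LSM5 and LSM7) were called under all 11 alternatives on the 4 libraries, and SNRPD2 and SNRPE also with each library left out. The higher calls were less stable: DESeq2 called 1 member higher (SNRNP70, with no adjusted p for PRPF31) and library size only called 3, from 8. Of the 11 alternatives, SNRNP200 was called under 3, PRPF4B under 7 and PRPF38B under 8. PRPF38A and PRPF3 were called under 9, and SNRNP70 and LSM14A under 10. Of the lower calls, PRPF39 held under 9 and SNRNP48 under 10. With the members that have an alternate contig copy left out, an alternative added after seeing the data, 6 were called higher and 7 lower. Counts of PRPF31, PRPF8 and LSM2 were too low for firm values, and the cause was not tested. Of the uncalled members named in the text, SNRNP25 was called under 5 of the 11 alternatives, SNRPB2 under 4, SNRNP40 under 2, and SNRPA1 and SNRPG under 1 each.

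DESeq2 called 795 of all genes, 0 LSM genes higher, 1 snRNP-specific gene higher and 0 lower, and in the other lists 1 (other snRNP proteins), 1 (assembly), 0 (PRPF19 complex), 1 (decay) and 0 (U7 partners). Library size only, which moves the median of all genes by −0.065, gave medians of −0.18 (Sm), −0.11 (LSM), 0.027 (snRNP-specific), −0.069 (all members), −0.059 (other snRNP), −0.043 (assembly), −0.034 (PRPF19 complex), −0.083 (decay) and 0.0027 (U7 partners), called 2 snRNP-specific genes higher and 4 lower and 1 assembly gene, and reversed LSM12 (−0.037), PRPF19 (−0.031) and PRPF4 (−0.044). Length and GC offsets gave medians of −0.049 (Sm), 0.031 (assembly) and 0.065 (PRPF19 complex), called 1 snRNP-specific gene lower, 2 PRPF19 complex genes and 0 U7 partners, and reversed LSM3 (0.0076), LSM6 (0.045), LSM8 (0.014), SNRPC (0.017) and SNRPF (0.04). No deviation shared by replicate number was seen (correlation of deviations −0.0458 over 10211 genes). With 1 replicate difference per condition, this cannot show whether the samples were paired. The replicate block called 9 members higher and 8 lower, 7 other snRNP and 2 PRPF19 complex genes, and 2167 genes in all; with length and GC offsets it called 8, 3 and 0 U7 partners, with medians of −0.049 (Sm), 0.03 (assembly), 0.066 (PRPF19 complex) and −0.03 (decay), and reversed LSM3 (0.0069), LSM6 (0.047), LSM8 (0.014), SNRPC (0.018) and SNRPF (0.04). Thinning gave medians of 0.03 (other snRNP) and 0.015 (assembly) and called 0 PRPF19 complex and 1 decay gene, no filter called 2 PRPF19 complex genes, and at least 10 counts gave an assembly median of 0.014. Per kilobase of the longest transcript, the highest over the lowest level was 12.6 (7 Sm genes), 18.2 (11 LSM genes) and 17.9 (22 snRNP-specific genes, from 112). PRPF31 was not among these 22. Its level by this length, 0.618 CPM in 2-D and 2.72 CPM in 3-D, lay below their lowest (PRPF18 at 3.83). The cause of these shifts was not tested.

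With each library left out, members called ranged from 1 to 11 higher (1 without 2-D replicate 2) and 3 to 9 lower (3 without 2-D replicate 1), and their median from −0.06 to 0.04. Sm genes ranged from 0 to 1 higher and 2 to 4 lower (median −0.14 to −0.055), LSM genes from 0 to 1 and 1 to 2 (−0.12 to −0.0003), snRNP-specific genes from 1 to 9 and 0 to 3 (0.08 to 0.1). Calls ranged from 1 to 5 in other snRNP proteins (−0.0077 to 0.026), 0 to 3 in assembly (−0.012 to 0.023), 0 to 2 in PRPF19 complex (0.0046 to 0.042), 1 to 2 in decay (−0.048 to −0.0078), 0 to 1 in U7 partners (0.035 to 0.1) and 792 to 2390 over all genes. Uncalled members that changed sign were LSM10 (−0.16 to 0.033), LSM12 (−0.068 to 0.12), LSM3 (−0.064 to 0.053), LSM4 (−0.056 to 0.044), LSM6 (−0.14 to 0.11), LSM8 (−0.071 to 0.014), PRPF19 (−0.017 to 0.082), PRPF4 (−0.0095 to 0.047), SNRNP27 (−0.31 to 0.036), SNRPC (−0.066 to 0.0088), SNRPD1 (−0.012 to 0.16) and SNRPF (−0.1 to 0.064).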
